A study of Rattus norvegicus with 12 samples.

Results

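The comparison described here sets 3 libraries of H9c2 cells given methylmalonic acid (MMA) alone directly against 3 libraries given folic acid (FA) alone, 6 of the 12 libraries of the study. The libraries were taken by their labels, MMA replicates 1 to 3 and FA replicates 1 to 3. The other 6 libraries were 3 of control cells (Ctrl in the labels) and 3 of cells given both agents (MMA_FA, written MMA+FA below), and their levels are printed beside those of the single treatments. As far as the labels say, the groups differ only in these agents; doses, exposure times and the vehicle of the control cells were not given in the sources. Every library came from polyadenylated RNA of the same line, H9c2, which derives from embryonic rat heart and is labelled as cardiomyocytes. Levels are in TPM, which states a gene's transcripts, corrected for length, as a share of all those in its library. Of 15 cardiomyocyte markers, 4 were abundant enough to be tested. In the 6 libraries compared, the myosin heavy chain gene Myh6 stayed between 0.04 and 0.11 TPM, the ryanodine receptor gene Ryr2 between 0.01 and 0.03 TPM, and Nppa was listed at 0 in all 6. The cardiac transcription factor genes Gata4 (5.36 to 6.19 TPM) and Nkx2-5 (10.8 to 13.98 TPM) were present, as were the troponin gene Tnnt2 and the myogenic factor Myod1. The labels do not state that replicates were separate cultures, so the p-values describe the spread between these samples, which may be technical.

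MMA is a dicarboxylic acid that accumulates when methylmalonyl-CoA mutase, a cobalamin-dependent mitochondrial enzyme on the route from propionate to the TCA cycle, works poorly. Folic acid is a synthetic folate that cells reduce to tetrahydrofolate, the carrier of one-carbon units used to make thymidylate, purines and methionine. The routes meet at cobalamin, the cofactor of the mutase and of methionine synthase. H9c2 cells divide while sparse and can turn towards a muscle program, so genes of division and genes of contraction both describe their state.

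All fold changes are differences of log2(TPM + 1), MMA minus FA, from a limma fit with 1 mean for each of the 4 groups; this scale understates changes of low genes. A gene is called when its Benjamini-Hochberg adjusted p over the 12263 tested genes is under 0.05. Of 30562 genes in the table, 10351 were listed at 0 in every library. Between 12143 and 12243 genes reached 1 TPM in each of the 6 libraries, and TPM keeps no read depth, so the depth is unknown. Pearson's r across genes, which are not independent replicates, was 0.990 to 0.992 among the MMA libraries, 0.987 to 0.990 among the FA libraries and 0.984 to 0.991 between them. On the first principal component of the 6 libraries (33.7% of the variance) the MMA libraries lay at 10.3, 15.5 and 5.04 and the FA libraries at -7.98, -0.774 and -22.1. FA replicate 2 lay nearest to the MMA libraries and FA replicate 3 farthest from them.

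Between the single treatments, 965 genes were called, 7.87% of those tested: 308 were higher with MMA (2.51%) and 657 were lower with MMA (5.36%). At an unadjusted p under 0.05 there were 3244 (26.5%). The differences were small, with a median size of 0.29 on the log2 scale among called genes, and 8 called genes differed by 2-fold or more. The 5 higher with MMA included Prrx2 (log2 difference 1.02), Camta1 (1.74), AABR07021591.1 (1.01) and the long noncoding RNA ENSRNOG00000070452 (1.18). The 3 lower were Tnnt2 (-1.02), Fosb (-1.45) and the small nuclear RNA LOC120095480 (-2.31), which was listed at 0 in MMA replicate 2. In the 6 fits that leave out 1 of the compared libraries, Prrx2 and Tnnt2 were called each time and the other 6 in at most 3 of them. The 95% interval lay wholly within 0.5 of 0 on the log2 scale for 10966 genes (89.4%).

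The number of calls depended on single libraries. Their number was 300, 114 and 438 without MMA replicates 1, 2 and 3 in turn, and 212, 2086 and 205 without FA replicates 1, 2 and 3. Among the 965, 97 genes were called in each of these 6 fits, 46 of them higher and 51 lower with MMA. Median-ratio scaling, which centres the libraries on their typical gene, gave 456 genes higher (3.72%) and 441 lower (3.60%), where the median gene lay at -0.03 in the values as deposited. All 308 genes higher with MMA, and 441 of the 657 lower, were called under both scalings.

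**Figure D1:**
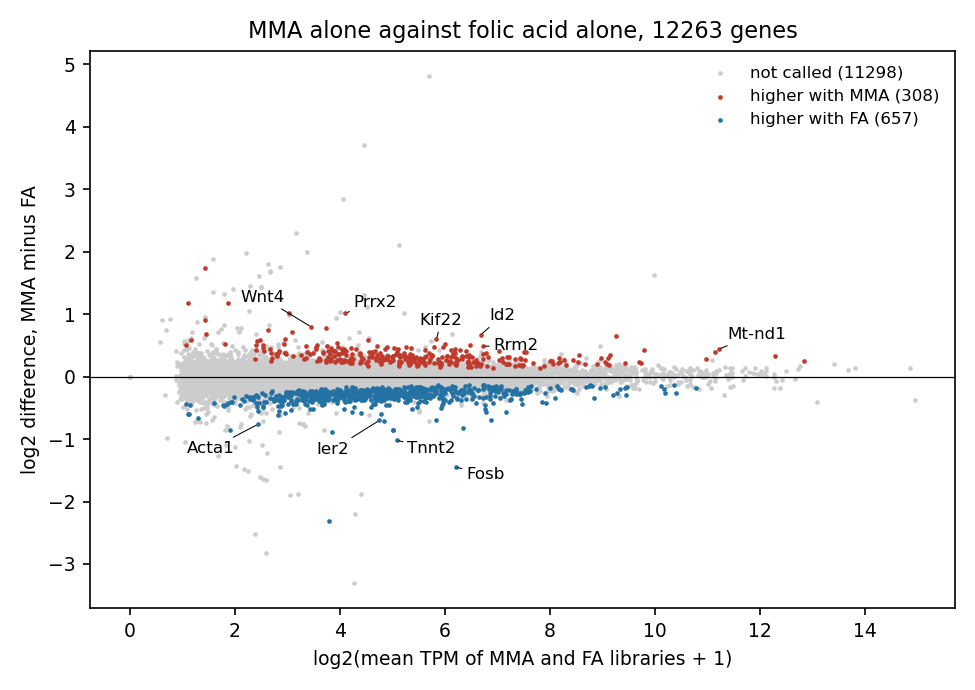
Log2 difference of each tested gene, MMA minus FA (vertical axis), against the log2 of its mean TPM over the 6 libraries plus 1 (horizontal axis). Each point is 1 of 12263 genes; the 308 red points were called higher and the 657 blue points lower with MMA, and all but 8 of these lie within 1 log2 unit of 0. Of the 49 uncalled genes that differed by 2-fold or more, 42 were listed at 0 in at least 1 of the 6 libraries.

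The smallest adjusted p of all genes belonged to Prrx2, which encodes a paired-related homeobox factor of embryonic mesenchyme. It stood at 22.7, 22.9 and 20.5 TPM with MMA and at 9.65, 11.7 and 9.85 TPM with FA. Every MMA library thus lay far above every FA library, and the log2 difference was 1.02 (SE 0.08, adjusted p = 0.000222 in limma). The control libraries were higher than either, at 34.4, 35.7 and 37.9 TPM, and MMA+FA was lower than either, at 5.04, 5.39 and 5.98 TPM. The order of levels was therefore control, MMA, FA and MMA+FA, with no overlap between neighbours. Its paralogue Prrx1 stood at 53.8 ± 4.24 TPM with MMA and 51.6 ± 4.20 TPM with FA (mean ± SD, n = 3 each), groups that overlapped. Its log2 difference was 0.06, with a 95% interval of -0.10 to 0.21 that does not reach the difference of Prrx2.

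Wnt4, a secreted Wnt ligand, read 12.4, 14.5 and 11.8 TPM with MMA and 6.66, 6.42 and 7.90 TPM with FA. The groups did not overlap, and the difference was 0.80 (SE 0.10, adjusted p = 0.00304 in limma). Control cells had 15.9 ± 1.55 TPM and MMA+FA cells 3.80, 3.33 and 4.15 TPM, the same order of group means as in Prrx2. Of 25 tested Wnt pathway genes, Wnt4 was the 1 called higher and the receptor gene Fzd7 the 1 called lower (-0.25). Of all genes, 2.51% were called higher and 5.36% lower. The list median was -0.07, and median-ratio scaling gave 2 higher and 1 lower.

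The Id genes, whose products bind basic helix-loop-helix factors and keep them from DNA and which are classical targets of BMP signalling, were called higher with MMA in 3 of 4 members; Id1 lay at 0.20 without passing (adjusted p = 0.0717 in limma). Id2 stood at 128, 134 and 114 TPM with MMA and 68.9, 82.8 and 83.97 TPM with FA (log2 difference 0.67, SE 0.10, adjusted p = 0.00659 in limma). Its MMA libraries overlapped the control libraries (123, 141 and 138 TPM), whereas all 3 FA libraries lay below them. Id4 stood at 8.04 ± 0.656 TPM against 5.29 ± 0.161 TPM (0.52, adjusted p = 0.00707). Id3 was the most abundant of the 3, at 553 ± 28.8 against 451 ± 15.04 TPM (0.29, adjusted p = 0.0102). These 3 calls, like those of Prrx2 and Wnt4, were kept in all 6 fits without 1 library. Smad9, a receptor-regulated Smad of the BMP branch, read 6.35, 6.54 and 4.66 TPM with MMA and 3.43, 3.90 and 4.03 TPM with FA (0.51, adjusted p = 0.0239). It was no longer called without MMA replicate 1 (adjusted p = 0.0827), MMA replicate 2 (0.105), FA replicate 1 (0.0839) or FA replicate 3 (0.0625).

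The BMP, TGF-beta and Id list had a median of -0.06, beside a median of -0.03 over all genes. Of its 29 tested genes, 6 were called higher with MMA and 3 lower, where 2.51% and 5.36% of all genes were. Among those called higher was also Fst (0.28), which encodes follistatin, a secreted antagonist of this ligand family. Those called lower included the TGF-beta receptor genes Tgfbr3 (-0.36) and Tgfbr2 (-0.18). Median-ratio scaling gave 9 higher and 1 lower, the latter being Tgfbr3. The ligand gene Tgfb3, listed with the cytokines, stood at 152, 139 and 156 TPM with MMA and 203, 189 and 217 TPM with FA, with the control libraries between them at 175, 164 and 167 TPM. Its difference was -0.44 (SE 0.06, adjusted p = 0.00637) and was called in all 6 fits without 1 library, whereas Fst, Tgfbr3 and Tgfbr2 were called in at most 2. The count for the list was 3 higher and 0 lower without MMA replicate 1, MMA replicate 2 or FA replicate 3, 4 and 0 without MMA replicate 3, 3 and 1 without FA replicate 1, and 7 and 4 without FA replicate 2; a fit of the 6 libraries alone gave 2 and 0.

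Some genes of the contractile apparatus were lower with MMA than with FA, among them 3 of 19 tested sarcomere genes and 9 of 22 smooth muscle genes, where 5.36% of all genes were called lower. Tnnt2, cardiac troponin T, read 22.7, 19.7 and 21.9 TPM with MMA against 43.8, 47.1 and 42.4 TPM with FA, a difference of -1.02 (SE 0.10, adjusted p = 0.00169 in limma). The MMA libraries lay just above control (15.02, 18.9 and 14.5 TPM) and the FA libraries far above it, and MMA+FA was the highest group at 84.6, 67.5 and 68.7 TPM. Acta1, skeletal muscle actin, was a low gene, with 2.54, 3.43 and 3.18 TPM under MMA and 6.37, 6.01 and 5.18 TPM under FA (-0.76, SE 0.11, adjusted p = 0.00659). Its control libraries, at 3.75, 3.87 and 3.69 TPM, lay between the groups. Myog, the myogenic factor of terminal muscle differentiation, stood at 13.4, 14.3 and 14.8 TPM with MMA and 20.1, 21.9 and 22.2 TPM with FA (-0.56, SE 0.08, adjusted p = 0.00659). Its control libraries (17.95, 15.6 and 13.8 TPM) overlapped those of MMA and lay below those of FA. The calls of Tnnt2, Acta1 and Myog were kept in all 6 fits without 1 library.

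Of 50 sarcomere genes listed, 19 passed the filter on low values and 3 were lower with MMA: Tnnt2, Acta1 and Tnnc2, fast skeletal troponin C (36.1 ± 5.13 against 50.8 ± 4.34 TPM, -0.49, adjusted p = 0.0175). Tnnc2 lost its call without MMA replicate 1 (adjusted p = 0.0605), MMA replicate 2 (0.0776) or FA replicate 1 (0.058). The sarcomere list had a median of -0.14, and the uncalled Nebl and Des lay at 0.36 and 0.09. Of 22 tested smooth muscle contractile genes, 9 were lower with MMA and 0 higher, with a median of -0.17 and 19 of 22 below 0; the uncalled Mylk lay at 0.09. Lmod1, leiomodin, an actin filament nucleator, stood at 53.2, 52.1 and 52.3 TPM with MMA against 69.6, 66.01 and 76.4 TPM with FA (-0.42, SE 0.05, adjusted p = 0.00271). Vcl, vinculin of focal adhesions, read 111, 108 and 111 TPM against 138, 135 and 135 TPM (-0.30, adjusted p = 0.0024). Control libraries of both genes lay between the groups, at 62.2 ± 0.0321 TPM for Lmod1 and 124 ± 3.77 TPM for Vcl, and both calls were kept in all 6 fits without 1 library.

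The regulatory light chain gene Myl9 (-0.26) and the tropomyosin gene Tpm1 (-0.20) were also called, and lost the call without MMA replicate 2 (adjusted p = 0.056 and 0.0546). Acta2, smooth muscle actin, was the most abundant muscle actin, at 4669 ± 429 TPM with MMA and 5260.1 ± 251 TPM with FA. Its difference of -0.17 (95% interval -0.30 to -0.05) did not pass (adjusted p = 0.0776). The count for the smooth muscle list was 2 without MMA replicate 2, 4 without FA replicate 1, 5 without MMA replicate 1 or FA replicate 3, 9 without MMA replicate 3, 11 without FA replicate 2, 6 under median-ratio scaling and 2 in a fit of the 6 libraries alone.

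Among 32 tested muscle and mesenchymal transcription factors, 2 were higher with MMA and 4 lower, beside 2.51% and 5.36% of all genes. The 2 higher were Prrx2 and Snai2, a zinc-finger factor of mesenchymal transitions (0.34, adjusted p = 0.0589 without MMA replicate 2). The 4 lower were Myog, Mef2d (-0.26), Mrtfa (-0.26) and Foxf1 (-0.23); Mef2d, Mrtfa and Foxf1 were each called in 1 of the 6 fits without 1 library, and Mrtfa and Foxf1 were not called under median-ratio scaling (adjusted p = 0.0533 and 0.0603). Myod1, which acts upstream of Myog, was at 59.97 ± 1.29 TPM with MMA and 55.2 ± 8.33 TPM with FA (0.13, 95% interval -0.08 to 0.34, adjusted p = 0.418). The summed level of the 14 cardiomyocyte markers in the table was 52.6 to 54.9 TPM in the MMA libraries, 78.2 to 82.6 TPM with FA and 48.6 to 53.3 TPM in control. Tnnt2 is one of them and made up most of the gap, at 19.7 to 22.7 TPM with MMA and 42.4 to 47.1 TPM with FA. Of the other tested markers, Gata4 and Nkx2-5 overlapped between the treatments. Cacna1c was lower with MMA (13.2 to 14.2 against 15.9 to 18.8 TPM). It was no longer called in limma without MMA replicate 1 (adjusted p = 0.092), MMA replicate 2 (0.12) or MMA replicate 3 (0.11). Nor was it called without FA replicate 1 (adjusted p = 0.091) or FA replicate 3 (0.16). Skeletal myoblast markers, 8 of 15 tested, summed to 219 to 225 TPM with MMA and 226 to 279 TPM with FA, and Pax7 was listed at 0 in every library. In bulk RNA, fewer cells of a type and less RNA per cell cannot be told apart, and the part of either in these differences was not tested.

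**Figure D2:**
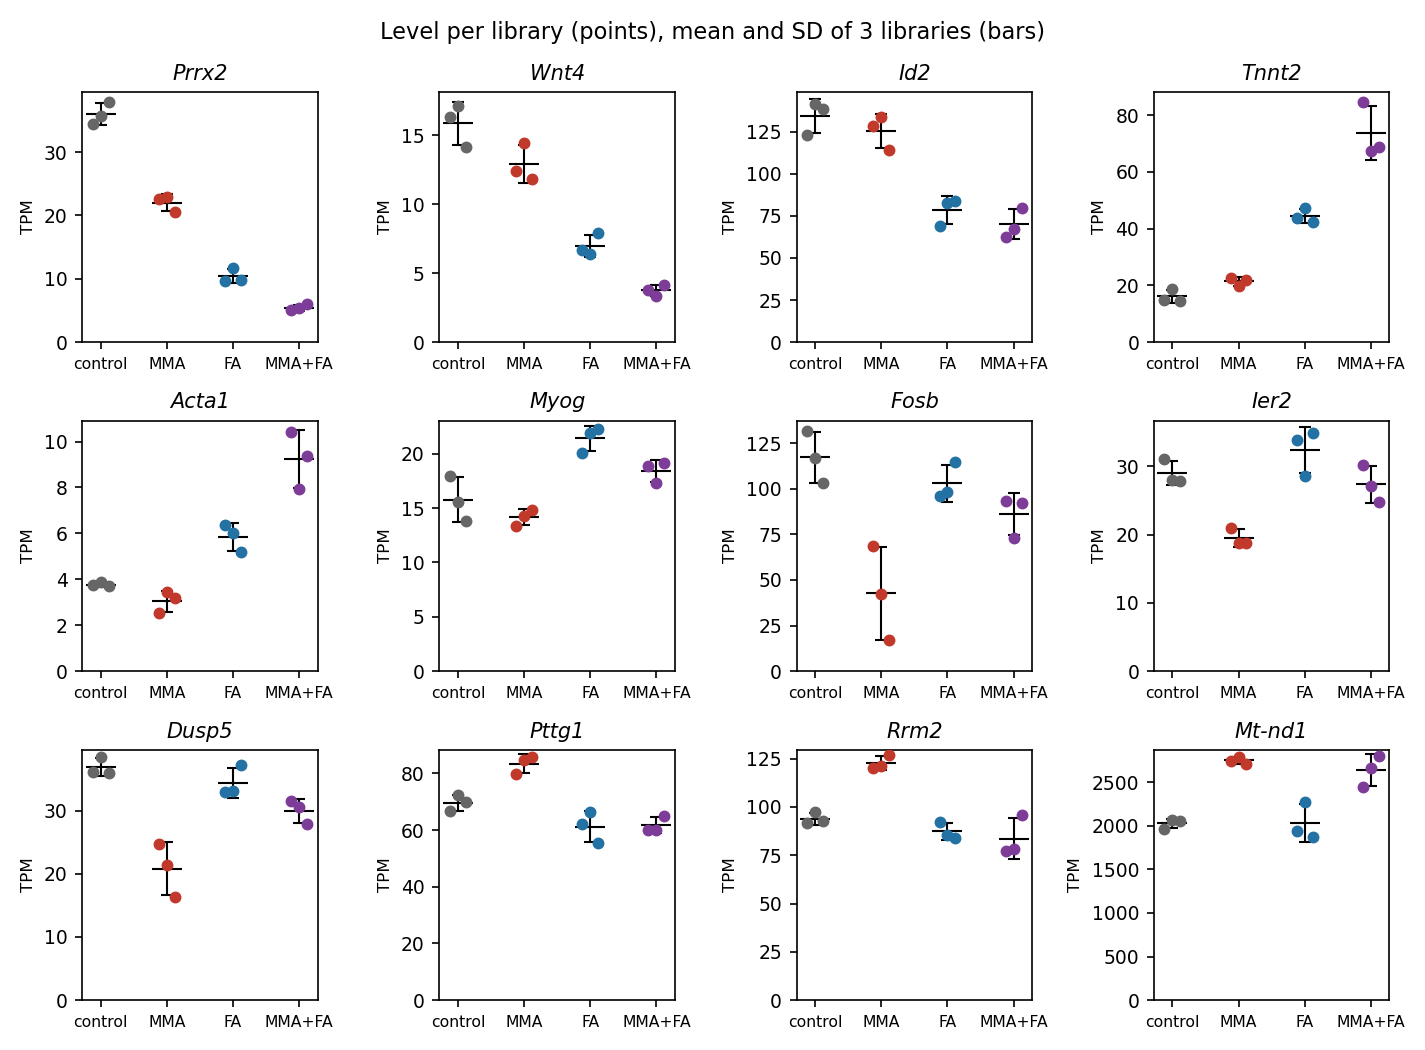
TPM of 12 genes in each library (vertical axes, starting at 0) for control, MMA, FA and MMA+FA; points are libraries, and the black bars show the mean and SD of 3. In Prrx2, Wnt4 and Id2 the MMA points lie above the FA points, in Tnnt2, Acta1, Myog, Fosb, Ier2 and Dusp5 below them, and in Pttg1, Rrm2 and Mt-nd1 above them. The genes drawn were chosen after their values were seen.

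Immediate early genes, which are transcribed soon after growth factor or stress signals through serum response factor and related factors, were lower with MMA than with FA in 13 of 39 tested members, beside 5.36% of all genes. Fosb, an AP-1 subunit, differed most: 68.4, 42.1 and 17.4 TPM with MMA against 95.9, 98.2 and 115 TPM with FA. The groups did not overlap, but the MMA libraries were widely spread, and the difference of -1.45 had an SE of 0.34 (adjusted p = 0.0261 in limma). It was no longer called without MMA replicate 2 (adjusted p = 0.0781), FA replicate 1 (0.0681) or FA replicate 3 (0.0994). Fos stood at 111, 91.9 and 66.9 TPM against 133, 131 and 167 TPM (-0.69, adjusted p = 0.0239), and lost its call without MMA replicate 2 (adjusted p = 0.0776), MMA replicate 3 (0.0543), FA replicate 1 (0.0591) or FA replicate 3 (0.0994). Ier2, whose product is a nuclear protein of the early growth response, was tighter: 20.97, 18.7 and 18.8 TPM with MMA, 33.8, 28.6 and 34.9 TPM with FA and 31.02, 28.1 and 27.9 TPM in control (-0.70, SE 0.09, adjusted p = 0.00274). The MMA libraries of Ier2 lay below both other groups, which overlapped each other.

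Further members called lower act in different ways. Dusp5, a nuclear phosphatase that inactivates ERK, read 24.7, 21.4 and 16.4 TPM with MMA and 32.9, 33.1 and 37.2 TPM with FA (-0.71, SE 0.11, adjusted p = 0.00659 in limma). Zfp36, tristetraprolin, which destabilises mRNAs with AU-rich elements, read 49.99, 43.6 and 34.9 TPM against 69.9, 65.2 and 73.2 TPM (-0.70, SE 0.13, adjusted p = 0.0133). In both genes the FA libraries lay near or among the control libraries (36.1, 38.5 and 35.98 TPM for Dusp5 and 73.7, 71.7 and 63.01 TPM for Zfp36). The zinc-finger factor Egr1 stood at 88.8 ± 15.8 against 130.1 ± 7.67 TPM (-0.56, adjusted p = 0.0175), the AP-1 subunit Junb at 49.5 ± 0.992 against 70.99 ± 6.31 TPM (-0.51, adjusted p = 0.00746) and the antiproliferative Btg2 at 51.02 ± 2.25 against 70.2 ± 4.01 TPM (-0.45, adjusted p = 0.00746). Dusp5, Ier2, Junb, Btg2, Mafk (-0.35) and Zfp36l2 (-0.35) kept their calls in all 6 fits without 1 library. Zfp36 lost its call without MMA replicate 2 (adjusted p = 0.0516) or FA replicate 3 (0.0531), and Egr1 without FA replicate 3 (adjusted p = 0.0636).

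Of the immediate early list 1 gene was called higher, the receptor tyrosine kinase inhibitor Spry2 (0.23). The list median was -0.18, with 29 of 39 below 0. Against control, which both treatments share, the list median was -0.15 for MMA and 0.05 for FA. The median of all genes lay at -0.06, -0.07 and -0.09 from control in the MMA libraries and at -0.05, -0.05 and -0.04 in the FA libraries. Srf, serum response factor itself, was among the genes lower with MMA (49.1 ± 1.09 against 60.3 ± 5.28 TPM, -0.29, adjusted p = 0.0143, and adjusted p = 0.0653 without MMA replicate 2). Per library, the list median lay at -0.14, -0.18 and -0.12 from the control mean with MMA and at -0.02, -0.02 and 0.16 with FA, so FA replicate 3 stood apart from the other FA libraries. The count was 7 lower and 2 higher without FA replicate 3, with a median of -0.10, and 7 lower without MMA replicate 2, 9 without FA replicate 1, 10 without MMA replicate 3, 11 without MMA replicate 1, 16 without FA replicate 2 and 4 in a fit of the 6 libraries alone. Hes1, a Notch target, read 92.7, 47.5 and 41.4 TPM with MMA and 92.8, 104 and 108 TPM with FA (-0.82, adjusted p = 0.0414). MMA replicate 1 lay at the level of the lowest FA library, and Hes1 was no longer called without MMA replicate 2 (adjusted p = 0.156), MMA replicate 3 (0.108), FA replicate 1 (0.0842), FA replicate 2 (0.05005) or FA replicate 3 (0.136).

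Dusp5, Zfp36 and Acta1 had a match to the CArG box, the element that serum response factor binds, in the bases before their start site. They are shown because they are called members with a match, and were chosen after the matches were seen. The sequences are from the RefSeq table for the rat build GRCr8, whereas the expression values use mRatBN7.2, and give the 250 bases before the start site, 5′ to 3′, with CArG matches in capitals. Dusp5 at chr1:262543524-262543773 (plus strand) holds 2 adjoining matches; Zfp36 at chr1:92799109-92799358 (minus strand) and Acta1 at chr19:68784195-68784444 (minus strand) hold 1 each.
Dusp5: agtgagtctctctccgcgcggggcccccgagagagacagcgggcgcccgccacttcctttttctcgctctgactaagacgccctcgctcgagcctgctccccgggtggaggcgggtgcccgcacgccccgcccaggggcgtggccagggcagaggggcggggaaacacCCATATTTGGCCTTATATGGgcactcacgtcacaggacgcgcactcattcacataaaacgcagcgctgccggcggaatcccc
Zfp36: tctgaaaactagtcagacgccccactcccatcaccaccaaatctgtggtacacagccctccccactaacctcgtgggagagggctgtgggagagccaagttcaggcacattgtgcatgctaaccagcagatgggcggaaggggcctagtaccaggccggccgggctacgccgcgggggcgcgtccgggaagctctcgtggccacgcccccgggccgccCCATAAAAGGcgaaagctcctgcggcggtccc
Acta1: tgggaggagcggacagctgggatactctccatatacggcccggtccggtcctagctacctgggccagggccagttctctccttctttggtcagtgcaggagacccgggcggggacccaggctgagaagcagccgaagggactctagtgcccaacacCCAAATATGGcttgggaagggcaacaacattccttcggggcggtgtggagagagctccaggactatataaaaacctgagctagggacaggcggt
In windows of 300 bases (250 before the start and 50 after it), both strands searched, a CArG match was found for 6 of 30 immediate early genes with a window (20%), 3 of 16 sarcomere genes (18.8%), 1 of 18 smooth muscle genes (5.56%) and 451 of all 27457 windows (1.64%). Among genes tested it was 1.33%, among those called lower with MMA 3.06% (16 of 523) and among those called higher 0.833% (2 of 240). A match describes letters and is not a site of binding.

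Genes of the G2 phase and mitosis were higher with MMA than with FA, where 2.51% of all genes were called higher. Of 62 tested members, 40 were called higher and 0 lower, the list median was 0.28, and all 62 differences lay above 0, from 0.05 (Bub3) to 0.44 (Pttg1), beside a median of -0.03 over all genes. In 51 of the 62 genes the 3 MMA libraries lay above the 3 FA libraries, as they did in 9.41% of all genes tested. Pttg1, securin, the inhibitor of separase, read 79.6, 84.7 and 85.8 TPM with MMA and 62.02, 66.3 and 55.4 TPM with FA (0.44, SE 0.06, adjusted p = 0.00659 in limma). The control libraries of Pttg1, at 66.6, 72.3 and 69.9 TPM, lay between the groups. The cyclin gene Ccna2 stood at 78.1 ± 2.21 against 58.2 ± 3.76 TPM (0.42, adjusted p = 0.00659) and Ccnb2 at 97.5 ± 3.69 against 76.2 ± 4.34 TPM (0.35, adjusted p = 0.00738). Their kinase Cdk1 read 163, 161 and 169 TPM against 133, 129 and 135 TPM (0.31, SE 0.05, adjusted p = 0.00659). Knstrn, a kinetochore and spindle protein, read 55.9, 57.6 and 58.3 TPM with MMA and 46.4, 42.4 and 43.3 TPM with FA (0.37, SE 0.05, adjusted p = 0.00279), and its FA libraries overlapped control (43.2, 46.3 and 44.2 TPM).

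Dlgap5 was higher by 0.34, Prc1 by 0.31, Aurka by 0.34 and Ndc80 by 0.40 on the log2 scale, and these 4, with Pttg1, Ccna2, Ccnb2, Cdk1, Knstrn and Cdca3, were the 10 members that kept their calls in all 6 fits without 1 library. The proliferation marker Mki67 (0.23, adjusted p = 0.126), the kinase Plk1 (0.23, adjusted p = 0.0625) and the transcription factor Foxm1 (0.19, adjusted p = 0.505) did not pass. The count of calls was 22, 36 and 15 without FA replicates 1, 2 and 3 in turn, and 17, 12 and 26 without MMA replicates 1, 2 and 3, with list medians between 0.26 and 0.31. Median-ratio scaling gave 46 calls and a median of 0.31, and a fit of the 6 libraries alone 15 calls.

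The distances from control, which share its libraries, had a median of 0.18 for MMA and -0.09 for FA over the 62 genes. In 55 of them the MMA mean lay above the control mean, and in 49 the FA mean lay below it. Per library, the G2/M median was 0.18, 0.18 and 0.19 from the control mean with MMA and -0.05, -0.13 and -0.13 with FA. The treatments thus lay on opposite sides of the control mean, with FA replicate 1 level with the lowest control library (-0.05). The MMA+FA libraries lay lower than either, at -0.33, -0.32 and -0.19. The median of all genes also lay below the control mean, at -0.06, -0.07 and -0.09 with MMA and -0.05, -0.05 and -0.04 with FA. FA replicate 1 was thus level with its median of all genes, and not all of the FA distance was particular to the G2/M list. Kif22, a chromokinesin, and Cenpw, a centromere protein, stood outside the list and differed more. Kif22 read 65.8, 65.5 and 72.4 TPM with MMA and 49.7, 46.04 and 38.6 TPM with FA (0.60, adjusted p = 0.00659 in limma). Cenpw read 27.1, 25.8 and 27.6 TPM and 18.3, 19.2 and 15.3 TPM (0.59, adjusted p = 0.00659), and in it the FA mean lay at 0.00 from control.

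**Figure D3:**
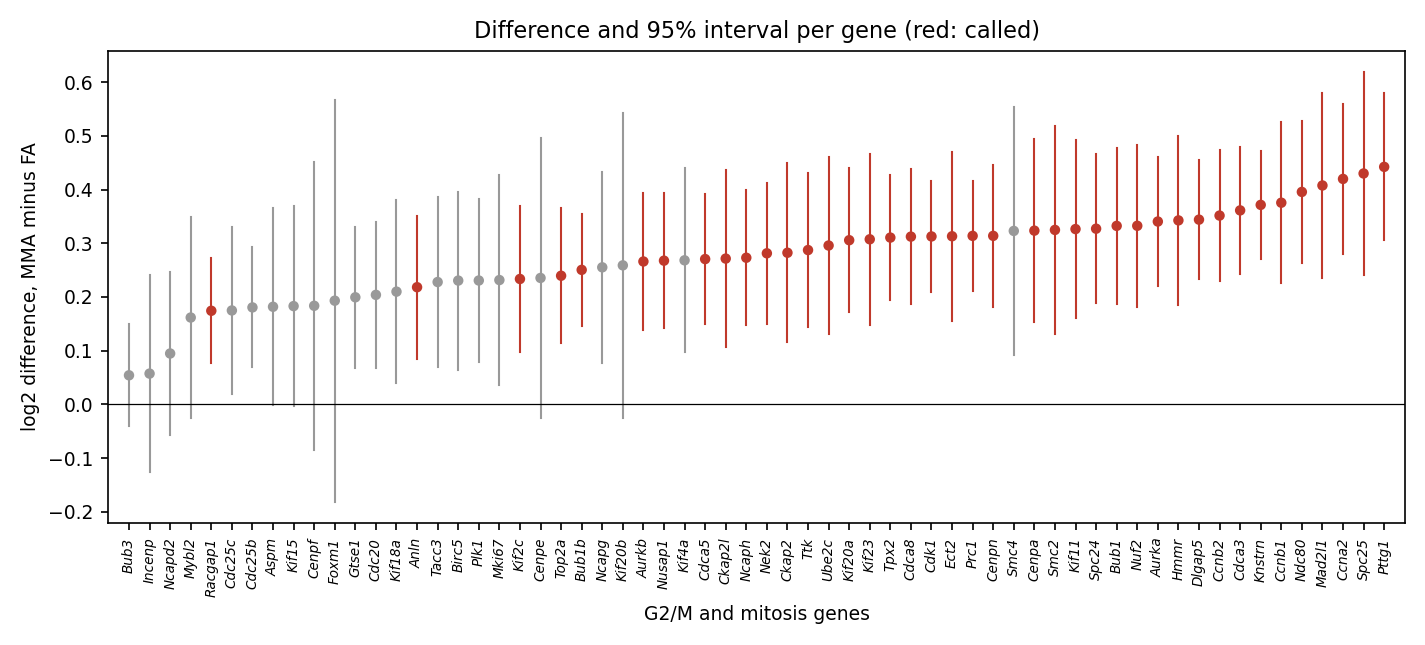
Log2 difference, MMA minus FA, of the 62 tested G2/M and mitosis genes (points) with their 95% intervals (lines), in order of size. All 62 points lie above 0, from Bub3 at 0.05 to Pttg1 at 0.44, and the 40 in red were called.

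Promoters of late cell cycle genes are known for a pair of short elements, the cell cycle homology region (CHR, letters TTTGAA) and CCAAT boxes (letters CCAAT). The promoters of Pttg1, Ccnb2 and Cdk1 are shown because they hold both beside a called difference, and were chosen after the matches were seen. The bases are the 250 before the start site from the RefSeq table for GRCr8, 5′ to 3′, with both elements in capitals on either strand. Pttg1 (chr10:28406327-28406576, minus strand) holds 1 CHR and 3 CCAAT matches. Ccnb2 (chr8:79981659-79981908, minus strand) and Cdk1 (chr20:19265043-19265292, plus strand) hold 2 CHR and 3 CCAAT matches each.
Pttg1: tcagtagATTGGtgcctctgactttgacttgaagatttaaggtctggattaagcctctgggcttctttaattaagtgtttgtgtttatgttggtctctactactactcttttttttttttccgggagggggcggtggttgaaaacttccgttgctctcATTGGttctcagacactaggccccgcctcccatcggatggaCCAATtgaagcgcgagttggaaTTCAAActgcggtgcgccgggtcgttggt
Ccnb2: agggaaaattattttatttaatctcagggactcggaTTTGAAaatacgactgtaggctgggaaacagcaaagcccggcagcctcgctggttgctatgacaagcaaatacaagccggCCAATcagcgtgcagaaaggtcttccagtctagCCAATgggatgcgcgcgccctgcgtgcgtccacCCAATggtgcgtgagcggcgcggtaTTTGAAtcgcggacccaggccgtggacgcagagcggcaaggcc
Cdk1: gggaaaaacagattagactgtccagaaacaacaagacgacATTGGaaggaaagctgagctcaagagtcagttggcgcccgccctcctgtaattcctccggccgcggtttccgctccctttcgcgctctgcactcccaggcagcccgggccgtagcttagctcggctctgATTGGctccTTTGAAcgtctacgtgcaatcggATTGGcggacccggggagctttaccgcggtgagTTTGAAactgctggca
Of 55 G2/M genes with a window, 37 held a CHR match (67.3%), against 18.1% of all windows and 11.9% of those of genes tested. A CCAAT match stood in 40 (72.7%, against 37.7% of all and 38.8% of tested), and both in 29 (52.7%, against 7.25% and 4.9%). The E2F element (letters TTTNNCGC) was found in 10 of the 55 (18.2%, against 5.19% of all windows and 8.88% of those of genes tested) and in 21 of 41 S phase genes (51.2%). Of the 37 members with a CHR match, 23 were called, with a median of 0.27, and of the 18 without one 12 were called, with a median of 0.29. CHR matches stood in 28.8% of the windows of genes called higher with MMA and 7.65% of those called lower. The E-box (letters CANNTG), bound by the partners of Id proteins, stood in 71.6% of all windows, 61.3% of those of genes tested, 56.2% of those of genes called higher and 61% of those called lower.

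S phase genes differed by a smaller median than the G2/M list. Of 49 tested, 7 were higher with MMA, where 2.51% of all genes were, and 0 lower, with a median of 0.15 and 48 of 49 above 0. From control, which both treatments share, the list median was 0.22 with MMA and 0.04 with FA. In 29 of the 49 genes the FA mean lay above the control mean, and in 20 below it. Rpa2, a subunit of the single-strand binding complex of replication, read 43.5, 40.7 and 44.2 TPM with MMA and 33.3, 35.3 and 34.2 TPM with FA, on either side of the control libraries at 37.5, 38.3 and 38.2 TPM (0.31, SE 0.05, adjusted p = 0.00659 in limma). It was the 1 member called in all 6 fits without 1 library. The count was 2 without MMA replicate 1, MMA replicate 2 or FA replicate 1, 3 without MMA replicate 3 or FA replicate 3, 6 without FA replicate 2, and 0 in a fit of the 6 libraries alone.

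Enzymes that supply deoxynucleotides gave 5 of 16 higher, beside 2.51% of all genes, and 0 lower, with a median of 0.22. A fit of the 6 libraries alone called 2. Rrm2, the regulated subunit of ribonucleotide reductase, read 120.0, 121 and 127 TPM with MMA and 92.3, 85.6 and 84 TPM with FA, with control at 91.4, 97.2 and 92.9 TPM (0.49, SE 0.07, adjusted p = 0.00659 in limma). The MMA libraries of Rrm2 lay above all others, and the FA libraries overlapped control. The near-identical locus Rrm2l1 differed by 0.52, and counting could split reads between the pair, so both values are uncertain. The larger subunit gene Rrm1 stood at 201 ± 5.86 against 166 ± 7.27 TPM (0.27, adjusted p = 0.0133) and the nucleotide pyrophosphatase gene Dctpp1 at 82.2 ± 6.63 against 63.2 ± 2.90 TPM (0.37, adjusted p = 0.0102). Rrm2, Rrm1 and Dctpp1 were called in all 6 fits without 1 library. Dut, the dUTPase, differed by 0.34 (adjusted p = 0.0143) and lost its call without MMA replicate 2 (adjusted p = 0.066) or FA replicate 3 (0.0531). The thymidylate genes Tyms (0.24, adjusted p = 0.105) and Tk1 (0.21, 95% interval -0.03 to 0.45, adjusted p = 0.247) did not pass. Tyms lay 0.42 and 0.19 from control with MMA and FA, and Tk1 0.80 and 0.59. Among 11 tested histone genes, 3 were higher with MMA: H3f3b (0.22), H1f0 (0.23) and H2az2 (0.38), of which H3f3b was called in all 6 fits without 1 library. The histone list was split, with a median of 0.06, 6 members above 0 and 5 below it, the lowest at -0.59.

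**Figure D4:**
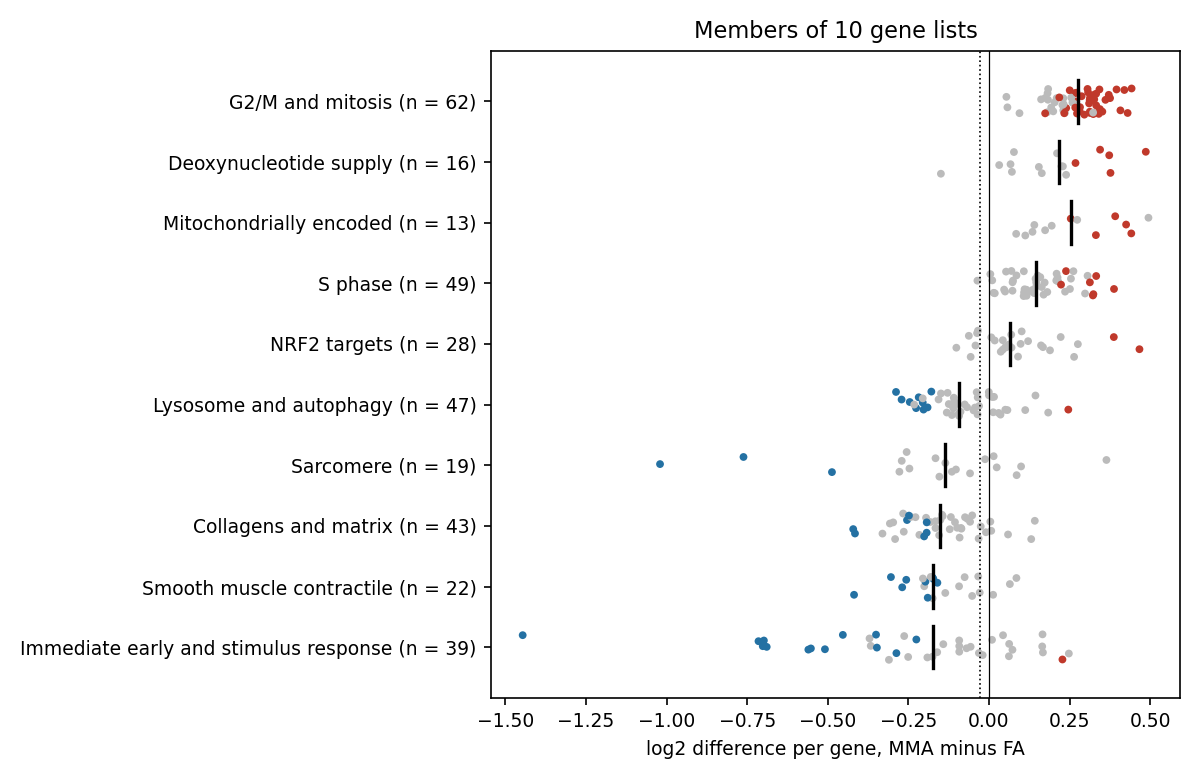
Log2 difference, MMA minus FA, of each tested member (points) of the gene lists drawn (rows, n is the number of members tested); red was called higher and blue lower with MMA, and the thick bar is the list median. The dotted line is the median of all genes (-0.03); the G2/M row lies wholly above 0, and the immediate early row reaches down to Fosb at -1.45. The lists drawn were chosen after their values were seen.

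Mitochondrially encoded transcripts, which encode 13 subunits of the respiratory chain, had a higher mean with MMA in all 13 genes, with a median difference of 0.25. Of the 13, 5 were called higher, beside 2.51% of all genes. The 5 encode subunits of complex I. The largest of the 13 differences, 0.49, was that of a gene not called, and median-ratio scaling called 6. Mt-nd1 read 2739, 2792 and 2709.9 TPM with MMA and 1941, 2274 and 1873 TPM with FA, with control at 1966, 2064 and 2049.6 TPM (0.44, SE 0.07, adjusted p = 0.00659 in limma). Its MMA libraries lay above both other groups, which overlapped each other. Mt-nd2 differed by 0.39 (adjusted p = 0.00911), Mt-nd5 by 0.43 (0.0127), Mt-nd4l by 0.33 (0.0133) and Mt-nd3 by 0.25 (0.0282). The mitochondrial ribosomal RNA AY172581.24 was at 747 ± 7.24 TPM with MMA and 477 ± 43.4 TPM with FA (0.65, SE 0.07, adjusted p = 0.00169), on either side of control (585 ± 8.53 TPM). Mt-nd1 and this RNA kept their calls in all 6 fits without 1 library. Mt-nd2 lost its call without MMA replicate 2 (adjusted p = 0.0504), Mt-nd5 without MMA replicate 2 (adjusted p = 0.0635), Mt-nd4l without MMA replicate 2 (adjusted p = 0.0684), FA replicate 1 (0.0509) or FA replicate 3 (0.0509) and Mt-nd3 without MMA replicate 2 (adjusted p = 0.114), MMA replicate 3 (0.0734), FA replicate 1 (0.0826) or FA replicate 3 (0.107). The count of the 13 that were called was 12 without FA replicate 2, 1 without MMA replicate 2, 3 without FA replicate 1 or FA replicate 3, 4 without MMA replicate 3, 5 without MMA replicate 1 and 3 in a fit of the 6 libraries alone. The complex IV genes differed by 0.14 (Mt-co1), 0.19 (Mt-co2) and 0.11 (Mt-co3) and did not pass.

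Together the 13 genes held 10.8 ± 0.598% of TPM with MMA, 9.53 ± 0.845% with FA and 9.58 ± 0.270% in control (n = 3 each). The difference of 1.24 percentage points gave p = 0.2 in a two-sided exact permutation test, which cannot go below 0.1 with 3 against 3 libraries, and lay between 0.868 and 1.7 points with 1 library left out. Nuclear genes of the respiratory chain differed less: 4 of 52 were higher, beside 2.51% of all genes, and 0 lower. Their median was 0.07, with 46 of 52 above 0. The 4 were Sdhd (0.20), Ndufa2 (0.27), Cox5b (0.17) and Ndufa13 (0.21), each called in at most 3 of the 6 fits without 1 library. Of 42 mitochondrial ribosomal protein genes, 3 were higher and 0 lower, with a median of 0.06.

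Genes of the extracellular matrix were lower with MMA than with FA in 7 of 43 tested members, beside 5.36% of all genes, and higher in 0. The list median was -0.15 and 38 lay below 0; from control, which both treatments share, it was 0.00 with MMA and 0.14 with FA. Col3a1, a fibrillar collagen chain, read 1229, 1203 and 1289 TPM with MMA and 1412, 1426 and 1606 TPM with FA (-0.25, adjusted p = 0.0357 in limma). Col5a1, a minor chain that regulates fibril width, read 201, 187 and 234 TPM and 292, 234 and 306 TPM (-0.42, adjusted p = 0.0387). In Col5a1 the highest MMA library and the lowest FA library were nearly equal. Hspg2, perlecan of basement membranes, read 84.2, 77.8 and 82.2 TPM against 109.8, 93.3 and 127 TPM (-0.42, adjusted p = 0.021), with the FA libraries widely spread. In this list 0 of 43 were called without FA replicate 1, FA replicate 3, MMA replicate 1 or MMA replicate 2, 2 without MMA replicate 3 and 17 without FA replicate 2, with medians between -0.21 and -0.11, and 4 were called under median-ratio scaling and 0 in a fit of the 6 libraries alone. Fibroblast and mesenchymal markers, 9 of 14 tested, summed to 11708 to 12950 TPM with MMA and 13032 to 14852 TPM with FA. The collagen genes Col1a1, Col1a2 and Col3a1 are among these markers and made up most of the sums. Of the 9 tested, 7 lay below 0 and 2 above it. S100a4, above 0, read 1145, 1164 and 1166 TPM with MMA and 1019, 1137 and 1008 TPM with FA. The part of fibroblast or mesenchymal cells in these differences was not tested.

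**Figure D5:**
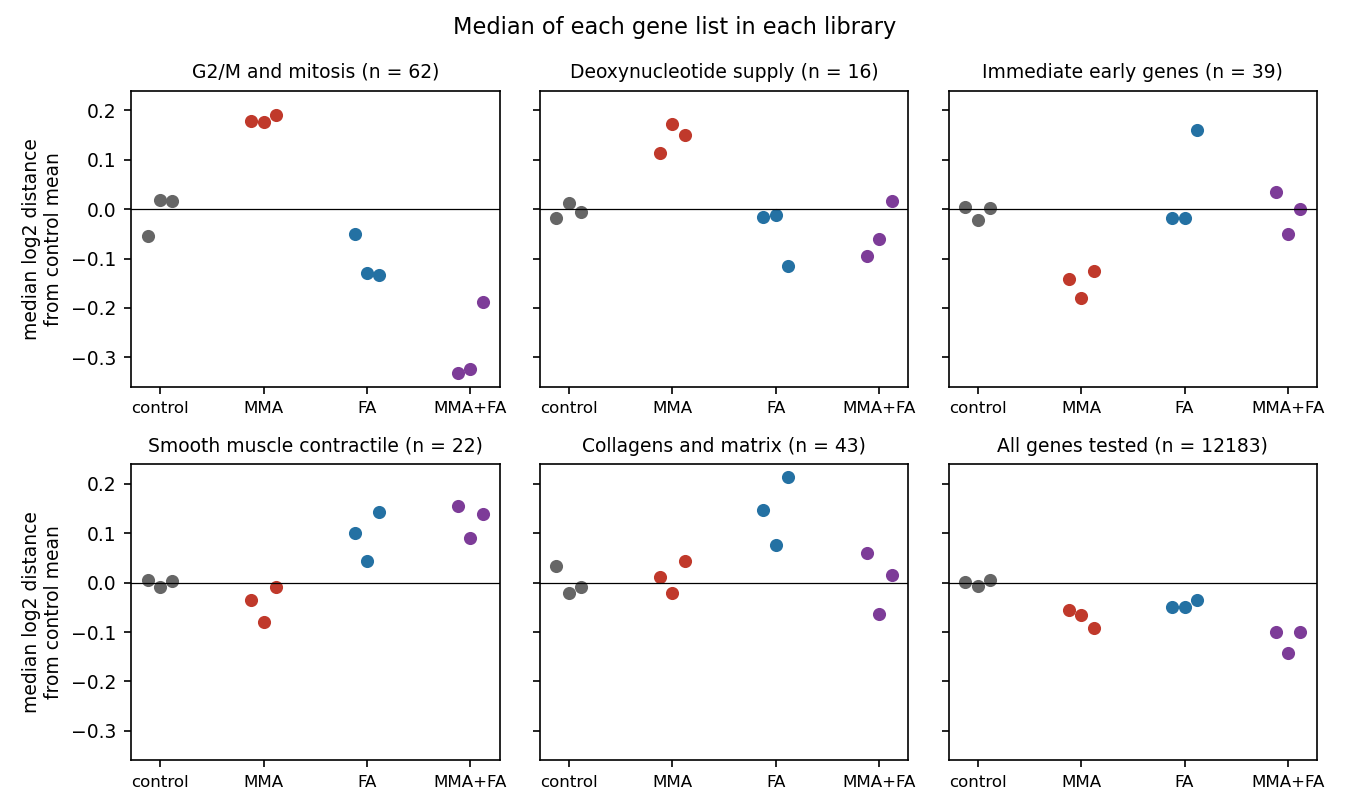
Median log2 distance of each gene list from the control mean in each library (vertical axis), for control, MMA, FA and MMA+FA; points are libraries, n is the number of genes, and the panel of all genes holds 1 locus per symbol (12183). The MMA libraries of the G2/M list lie at 0.18, 0.18 and 0.19 and the FA libraries at -0.05, -0.13 and -0.13; in the immediate early list FA replicate 3 lies apart at 0.16.

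Lysosome and autophagy genes gave 9 of 47 lower and 1 higher with MMA, beside 5.36% and 2.51% of all genes, with a median of -0.09. Hexa, a subunit of hexosaminidase, read 123, 123 and 128 TPM with MMA and 144, 144 and 144 TPM with FA (-0.21, SE 0.03, adjusted p = 0.00911 in limma). Its control libraries lay between the groups, at 137, 139.8 and 140.0 TPM. The cholesterol exporter Npc1 differed by -0.23 (adjusted p = 0.0334). The 1 higher gene was the cysteine protease Ctsl, at 284 ± 8.40 TPM with MMA, 239.9 ± 12.96 TPM with FA and 377 ± 26.6 TPM in control (0.25, adjusted p = 0.0256). Hexa kept its call in 5 of the 6 fits without 1 library (lost without MMA replicate 2 (adjusted p = 0.0502)), Ctsl in 2 and Npc1 in 1. The number lower was 14 without FA replicate 2 and 1 to 4 without any other of the 6 libraries (1 for MMA replicate 2, 2 for MMA replicate 1 and FA replicate 3, 3 for FA replicate 1, 4 for MMA replicate 3), 5 under median-ratio scaling, and 0 in a fit of the 6 libraries alone.

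Among enzymes of the pathways to which the agents belong, calls were about as frequent as among all genes. In the folate and methionine cycle, 1 of 35 tested genes was higher with MMA and 3 lower, where 2.51% and 5.36% of all genes were. The list median was -0.03, equal to that of all genes. Mat2a and Sardh were among those called lower. Mat2a, which makes S-adenosylmethionine, stood at 54.4 ± 4.16 against 66.8 ± 6.80 TPM (-0.29, adjusted p = 0.0291 in limma), and Sardh, of mitochondrial choline breakdown, at 23.97 ± 1.27 against 28.4 ± 1.78 TPM (-0.23, adjusted p = 0.0288). Sardh was no longer called without MMA replicate 1 (adjusted p = 0.0744), MMA replicate 2 (0.125), FA replicate 1 (0.0544) or FA replicate 3 (0.0994), and Mat2a without MMA replicate 2 (adjusted p = 0.0819), MMA replicate 3 (0.0802) or FA replicate 1 (0.0609). Methionine synthase, Mtr, stood at 24.6 ± 0.668 against 26.7 ± 0.252 TPM (-0.11, 95% interval -0.21 to -0.01, adjusted p = 0.135), and Mthfd2, a mitochondrial folate enzyme, at 288 ± 1.27 against 293 ± 3.33 TPM (-0.02, 95% interval -0.13 to 0.08, adjusted p = 0.791).

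In propionate, cobalamin and branched-chain amino acid breakdown, 1 of 33 tested genes was lower with MMA and 0 higher, where 5.36% and 2.51% of all genes were. The list median was -0.04. The mutase gene Mmut itself stood at 9.29, 8.61 and 7.24 TPM with MMA and 9.14, 9.16 and 7.97 TPM with FA. The groups overlapped, and the difference was -0.06 (95% interval -0.26 to 0.14, adjusted p = 0.713 in limma). The cobalamin carrier gene Tcn2 differed by -0.17 (95% interval -0.31 to -0.04, adjusted p = 0.107). Under limma 0 genes were called among 12 enzymes of DNA methylation, 24 of cholesterol synthesis and uptake, 20 of fatty acid oxidation and 23 of the TCA cycle, the last with 2 called higher under median-ratio scaling.

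Calls among stress and inflammatory genes are set beside all genes, of which 2.51% were called higher with MMA and 5.36% lower. Of 28 tested NRF2 targets, 2 were higher with MMA and 0 lower, with a median of 0.07. The quinone reductase gene Nqo1 read 210.3, 209.9 and 215 TPM with MMA and 151, 163 and 172 TPM with FA (0.39, SE 0.07, adjusted p = 0.0131 in limma). Its MMA libraries lay among the control libraries (219, 196 and 232 TPM) and its FA libraries below them. It was no longer called without MMA replicate 2 (adjusted p = 0.0517) or FA replicate 1 (0.0506). The glutathione transferase gene Gsta1 stood at 71.6 ± 4.39 against 51.8 ± 6.38 TPM (0.47, adjusted p = 0.0192) and was called in 2 of the 6 fits, with adjusted p = 0.0781 without MMA replicate 2. Of 23 NF-kB and interferon genes, 2 were higher and 2 lower. Nfkbia, the inhibitor that NF-kB induces, read 33.5, 32.6 and 31.1 TPM with MMA and 23.4, 22.5 and 24.99 TPM with FA (0.44, SE 0.05, adjusted p = 0.00271) and was called in all 6 fits without 1 library; its FA libraries lay below control (29.3, 30.4 and 31.8 TPM).

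The chemokine genes Cxcl1 (56.9 ± 9.59 against 40.2 ± 4.21 TPM, 0.48, adjusted p = 0.0839 in limma) and Ccl2 (5.22 ± 1.15 against 4.65 ± 1.30 TPM, 0.15, adjusted p = 0.602) did not pass, and every library of either treatment lay below control in both (72.9, 74.7 and 99.4 TPM for Cxcl1 and 8.59, 9.20 and 11.5 TPM for Ccl2). Edn1, the endothelin-1 precursor, stood at 32.2 ± 3.29 with MMA and 26.2 ± 1.85 TPM with FA (0.29, 95% interval 0.01 to 0.56, adjusted p = 0.178). Its receptor gene Ednra stood at 6.75 ± 0.231 against 9.19 ± 0.800 TPM (-0.39, adjusted p = 0.00914), with all 3 control libraries between the groups, and was called in all 6 fits without 1 library.

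Which treatment lay farther from control depended on the scaling and on single libraries. Among the 308 genes higher with MMA, the MMA mean was the farther from control in 160 (51.9%) and the FA mean in 148. Among the 657 lower with MMA it was the MMA mean in 476 (72.5%). Under median-ratio scaling these shares became 69.7% and 54.4%. Without FA replicate 2 they were 30.8% and 53.9%, and without MMA replicate 1 69.4% and 79.7%, so among the higher genes the farther treatment turned with the library left out. In 119 called genes the 3 libraries of one treatment lay above and the 3 of the other below every control library. With MMA above there were 57, among them Pttg1, Cdk1, Rpa2, Dut, Snai2 and the mitochondrial ribosomal RNA AY172581.24. With MMA below there were 62, among them Vcl, Lmod1, Acta1, Tgfb3, Ednra and Hexa. Only called genes were counted, and in 961 of the 965 the MMA and FA libraries did not overlap, beside 27.8% of all genes tested. Separation of the treatments was thus nearly given by the call. This order around control was not counted over all genes. The count of 119 was 38 without MMA replicate 2, 68 without FA replicate 3, 70 without MMA replicate 1, 74 without FA replicate 1, 128 without MMA replicate 3 and 426 without FA replicate 2. The comparisons of each treatment with control called 2501 (20.4%) and 1517 genes (12.4%) for MMA and FA, and share the control libraries.

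A few genes were picked because both agents differed from control in the same direction with a call, while no call was made between the agents. That none of them was called between the agents in the values as deposited was therefore fixed by that choice. Palmd, palmdelphin, stood at 17.2 ± 0.353 TPM with MMA, 17.2 ± 1.00 TPM with FA and 11.3 ± 0.904 TPM in control. Its difference between treatments was 0.00, with a 95% interval of -0.16 to 0.16. Csf1, the growth factor of macrophages, stood at 140.2 ± 2.31 and 137 ± 10.2 TPM, beside 180.1 ± 3.50 TPM in control (difference 0.03, 95% interval -0.08 to 0.14). Lrrfip2 stood at 59.9 ± 1.83 and 60.5 ± 0.854 TPM beside 74.8 ± 1.89 TPM (95% interval -0.11 to 0.08), and the autophagy receptor gene Optn at 25.7 ± 2.36 and 24.7 ± 0.263 TPM beside 33.3 ± 0.0902 TPM (95% interval -0.07 to 0.17). Medag (-0.11, 95% interval -0.21 to -0.01) and the cold-inducible RNA-binding gene Rbm3 (0.22, 95% interval 0.07 to 0.36, adjusted p = 0.0661 in limma) lay above control in every library of either treatment. Rbm3 was called under median-ratio scaling (adjusted p = 0.0485).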

How the data were processed

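RNA of 12 H9c2 libraries (4 groups of 3) was measured by stranded mRNA sequencing. The authors deposited 1 table of TPM per gene and library. Per the submitters' processing notes, fastp and HISAT2 were used with build mRatBN7.2; the table's title names RSEM, and versions, the annotation and how strand was counted were not given in the sources. Columns were matched to groups by the sample titles. From the deposited TPM, log2(TPM + 1) was taken for genes whose mean over all 12 libraries reached 1 TPM and fitted with limma 3.58.1 (R 4.3.3), with 1 mean per group, a mean-variance trend and 8 residual degrees of freedom; the contrast was MMA minus FA, with Benjamini-Hochberg adjusted p under 0.05 over all 12263 genes. TPM keeps no read depth, so no counting interval was computed. The mitochondrial share was compared by exact permutation. The script was tested on simulated data.

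The comparison, the genes and the gene lists were chosen with earlier results of these data known. The rule for named genes took called genes with a symbol, 5 TPM or more in the higher group's mean and no overlap of libraries, 15 in each direction by size. It added up to 4 called genes with the smallest p in each list with at least 3 called, and a set of pathway genes. Others were named after their values were seen: Camta1, Nebl, Des, Mylk, Id1, Bub3, Ccna2, Ccnb2, Cdk1, Aurka, Ndc80, Cdca3, Mki67, Plk1, Foxm1, Myod1, Snai2, Mef2d, Fzd7, Fst, Tgfbr2, Tgfbr3, Tgfb3, Ednra, Junb, Spry2, Srf, Col5a1, Ctsl, Gsta1, the complex IV genes and the genes under other observations. Some genes are not reported here. A symbol with several loci (362 symbols) was taken at its most abundant one. Promoters came from the RefSeq table of GRCr8, matched by symbol (9232 tested genes), and figures were drawn with matplotlib 3.10.9. Alternatives covered scaling, pseudocount, filter, trend, weights, block and left-out libraries.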

Additional observations from a re-analysis of the deposited data

How the results depend on the processing

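The 965 calls became 897 with median-ratio scaling, 915 with quantile normalization (426 higher, 489 lower), 851 without mitochondrially encoded genes (357 higher, 494 lower), 955 without these and Ubb-ps1 (an alternative chosen after seeing the data), 981 and 946 with pseudocounts of 0.1 and 5, 1053 with a mean of at least 5 TPM and 761 without the mean-variance trend. Without a filter on low values 410 were called (156 higher, 254 lower) of 20211 tested. Array weights gave 3064 (1178 higher, 1886 lower); they were estimated gene by gene, chosen after the default estimate stopped before convergence. A fit of the 6 libraries alone, with fewer samples to estimate the spread, gave 84 (54 higher, 30 lower; 82 shared with the 965), and 2662 at an unadjusted p under 0.05. Leaving out 1 library gave 114 to 2086 calls, 54 to 663 higher and 60 to 1423 lower, and 38 to 426 genes on opposite sides of control. The share of higher genes whose MMA mean was the farther from control went from 51.9% to 69.74% with median-ratio scaling and 30.77% to 69.39% with 1 library left out, and that of lower genes from 72.5% to 54.42% and 53.9% to 79.7%. The cause of these shifts was not tested. Same-numbered MMA and FA libraries had correlations of -0.08, 0.11 and 0.06 between their deviations from the group means, and those of unlike number -0.20 to 0.14. Deviations within a group are tied to each other, so these values cannot tell whether the numbers pair the samples. With the replicate number as a block, 814 genes were called (266 higher, 548 lower). Over 113 named genes, 2021 alternative values gave 1631 with the same call, 380 that lost the call and 10 that gained it. In 0 did the direction of a called difference reverse. A change of sign where neither fit called the gene was counted as the same call. TPM keeps no depth, so the precision of low genes is unknown.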

Other observations

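Genes outside every list used above made up 60 of the 97 that were called in each of the 6 fits without 1 library; those named here were chosen after their values were seen. Plec, Flnc and Itga7, which were lower with MMA, encode proteins that link the cytoskeleton to membranes. Plec, plectin, a cytoskeletal linker, read 34.3, 31.02 and 34.1 TPM with MMA and 49.6, 41.5 and 52.4 TPM with FA (-0.51, adjusted p = 0.00695 in limma). Flnc, filamin C of striated muscle, stood at 196 ± 5.76 against 263 ± 30.9 TPM (-0.41, adjusted p = 0.00767; mean ± SD, n = 3 each). Itga7, the laminin-binding integrin subunit of muscle, stood at 130.0 ± 3.40 against 169 ± 12.2 TPM (-0.37, adjusted p = 0.00659). Akap12, a scaffold of protein kinases A and C, read 20.2, 18.7 and 21.4 TPM against 27.1, 26.8 and 28.5 TPM (-0.43, adjusted p = 0.00271), and Dmpk, a muscle protein kinase, 53.4, 52.1 and 54.7 TPM against 68.8, 65.9 and 74.6 TPM (-0.38, adjusted p = 0.00659). In both Akap12 and Dmpk the groups did not overlap, and the control libraries lay between them (24.3, 23.3 and 23.4 TPM and 64.6, 59.4 and 59.97 TPM). Etv5, an ETS factor that responds to growth factor signalling, differed by -0.52 (adjusted p = 0.00659), and Nab2, a corepressor of Egr factors, by -0.38 (adjusted p = 0.00712).

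Among those higher with MMA were further genes of division and repair. Rad51c, of homologous recombination, read 18.4, 18.8 and 18.3 TPM with MMA and 13.01, 14.2 and 12.7 TPM with FA, on either side of control at 15.1, 15.03 and 14.5 TPM (0.45, adjusted p = 0.0024 in limma). Fbxo5, an inhibitor of the anaphase-promoting complex, stood at 43.6 ± 2.10 against 30.99 ± 2.52 TPM (0.48, adjusted p = 0.00746). Bambi, a decoy receptor of the TGF-beta family, stood at 46.6 ± 0.670 against 33.5 ± 0.864 TPM (0.46, adjusted p = 0.00659), with all control libraries between the groups.

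Some of the widest gaps did not pass, and in them libraries of the same group lay far apart. Snrpe, a core spliceosome protein gene, read 1043, 1591 and 1260.4 TPM with MMA and 61.3, 1118 and 1026 TPM with FA, so that FA replicate 1 stood apart from the other FA libraries (1.62, adjusted p = 0.331 in limma). Mtln, which encodes a small mitochondrial protein, was listed at 0 in all 3 FA libraries and in MMA replicate 3, beside 117 and 187 TPM in MMA replicates 1 and 2.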
